A study of Homo sapiens with 6 samples.

Results

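Kinesins are the motor proteins that walk along or take apart microtubules, and the genes described here are the protein-coding genes of the count table whose symbol begins with KIF followed by a number, or is KIFC1, KIFC2 or KIFC3. The rule found 38 genes among the 30618 of the table, of which 12 are mitotic kinesins (KIF2C, KIF4A, KIF11, KIF14, KIF15, KIF18A, KIF18B, KIF20A, KIF20B, KIF22, KIF23 and KIFC1) and 26 are other kinesins. RNA-seq was done on ARPE-19, an established line of human retinal pigment epithelium, kept in 50 mM glucose as a model of diabetic retinopathy. The NC group (3 libraries) received a non-targeting siRNA and the siEIF1 group (3 libraries) received an siRNA against EIF1, a translation initiation factor that takes part in the choice of the start codon. All 6 libraries carry the high glucose, so no library shows the kinesins at normal glucose, and the knockdown came from a transient transfection of 1 siRNA sequence.

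Kinesins bind microtubules through a conserved motor domain that hydrolyses ATP. Transport kinesins carry vesicles, mitochondria, mRNA and ciliary cargo along microtubules through the whole life of a cell, while mitotic kinesins push spindle poles apart, move and align chromosomes, shorten microtubules and build the midzone for cytokinesis. Many mitotic kinesin genes are transcribed mainly in the late cell cycle and are low in resting cells, and the retinal pigment epithelium of the adult eye hardly divides, whereas ARPE-19 cells proliferate in culture.

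The libraries held between 26499929 and 31431479 counts, and the 38 kinesin genes together took 23342 to 26744 of them. EIF1 had 34666, 35700 and 34695 counts in the NC and 3377, 3025 and 3078 in the siEIF1 libraries (log2 fold change -3.58, edgeR adjusted p = 1.08e-13). Of 12 retinal pigment epithelium markers, 10 had a row and 7 had enough counts to be tested. BEST1, MITF and OTX2 averaged 18111, 1449 and 2194 counts, but TYR had at most 2 in a library. RPE65 and TTR, the rest of this list, had no row that could be used. SERPINF1, PMEL and LRAT averaged 192, 34.7 and 27.8 counts, and TYRP1 and DCT averaged 7 and 1.67. RLBP1, a retinoid-binding protein, was the 1 marker of this list that passed, with 16, 11 and 17 counts in the NC and 49, 42 and 49 in the siEIF1 libraries (log2 fold change 1.55, edgeR adjusted p = 0.00102). BEST1 had 12180 counts in siEIF1 replicate 3 and 17608 to 20700 in the other libraries. The summed markers of leukocytes reached at most 0.106 CPM, the library-size-scaled count, in a library. Those of Muller glia reached 0.637, those of endothelium 2.12 and those of photoreceptors 17.4. Of 4 mesenchymal markers tested, VIM and ACTA2 were higher in the siEIF1 group, against 10.2% of all genes tested. Both simple epithelial markers tested, KRT8 and KRT18, were higher as well. CDH1 and EPCAM, also on the simple epithelial list, had at most 5 and 3 counts in a library and were not tested. Summed mesenchymal CPM was 5336 to 5600 in the NC and 6460 to 7015 in the siEIF1 libraries. Summed simple epithelial CPM, which rests on KRT8 and KRT18, was 2097 to 2247 and 2442 to 2672. The part of these markers in the kinesin values was not tested.

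In the siEIF1 group, 11 of the 12 mitotic kinesin genes fell and none rose, while the other kinesin genes moved in both directions. Of the 12, 11 were lower at an adjusted p under 0.05 (edgeR, quasi-likelihood, Benjamini-Hochberg over all tested genes), against 10.4% of all 16749 genes tested. A fold change below 0.5 as well, the limit used by the study, was met by 7 of the 12, against 1.31% of all genes, and no kinesin had a fold above 2 with such a p, against 0.400% of all genes. The median log2 fold change was -1.36 for the mitotic kinesins, -0.019 for the 25 other kinesins tested and 0.0033 for all genes. Of these 25, 4 were lower and 2 were higher at an adjusted p under 0.05, where 10.4% and 10.2% of all genes were. All 12 mitotic kinesins had enough counts for the test, and KIF12, with 1 count over the 6 libraries, was the kinesin left out. Each library was whole-culture RNA, so fewer dividing cells and less of these mRNAs per cell cannot be told apart.

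**Figure D1:**
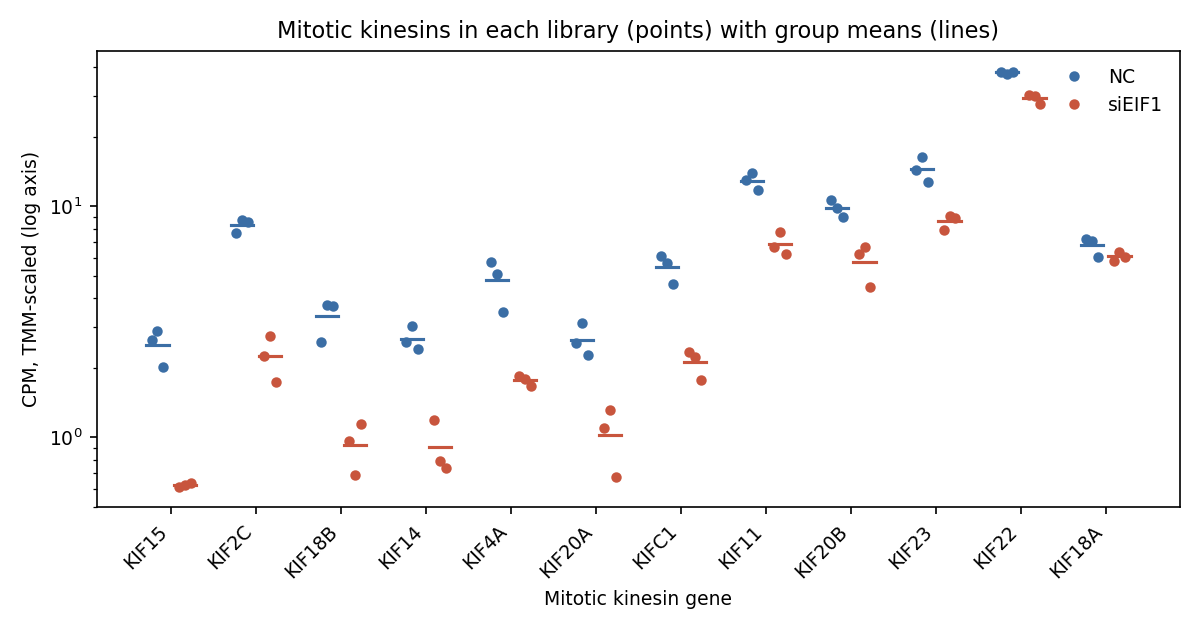
CPM scaled by TMM (log axis) of the 12 mitotic kinesins in each of the 3 NC (blue) and 3 siEIF1 (red) libraries, with lines at the group means. In 11 genes every red point lies below every blue point, and in KIF18A, at the right, the groups overlap.

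Motors that set the 2 spindle poles apart fell, and the backup motor fell by more than the main one. KIFC1, which pulls microtubules together at the poles, fell as well. KIF11 (ENSG00000138160.7, also known as Eg5) is a kinesin-5 that crosslinks antiparallel microtubules and slides them apart. Its CPM was 12.9, 13.9 and 11.7 in the NC and 6.69, 7.77 and 6.23 in the siEIF1 libraries, with no overlap. The log2 fold change of KIF11 was -0.90 (standard error 0.11, edgeR adjusted p = 6.33e-05), which leaves 53.6% of the NC level. KIF15 (ENSG00000163808.17), a kinesin-12 that can keep the spindle bipolar when KIF11 is blocked, had 2.63, 2.88 and 2.02 CPM in the NC libraries. In the siEIF1 libraries KIF15 had 0.611, 0.619 and 0.636 CPM, and its log2 fold change of -2.00 (standard error 0.23, edgeR adjusted p = 5.42e-05) was the lowest of the 37 kinesins tested. These 3 values rest on 18 or 19 counts per library. The ratio of KIF15 to KIF11 was 0.203, 0.207 and 0.172 in the NC and 0.0913, 0.0796 and 0.102 in the siEIF1 libraries (two-sided exact permutation test on the log2 ratio, p = 0.1, below which a 3 against 3 design cannot go, and adjusted p = 0.111 over 10 ratios chosen after the values were seen). KIFC1 (ENSG00000237649.8, kinesin-14) moves towards minus ends, pulls microtubules together at the poles and clusters extra centrosomes. Its CPM of 6.10, 5.66 and 4.60 in the NC libraries stood against 2.35, 2.24 and 1.77 in the siEIF1 libraries. The log2 fold change of KIFC1 was -1.36 (standard error 0.16, edgeR adjusted p = 7.92e-05).

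Motors that act on chromosome arms, the chromokinesins, both fell, by unlike amounts. KIF4A (ENSG00000090889.12) binds chromatin and, in anaphase, limits the length of midzone microtubules together with PRC1. It had 5.76, 5.09 and 3.50 CPM in the NC and 1.83, 1.79 and 1.67 CPM in the siEIF1 libraries, and its log2 fold change was -1.43 (standard error 0.19, edgeR adjusted p = 1.91e-04). NC replicate 3 was the lowest of its group and still lay above each siEIF1 library. KIF4A has a near-identical intronless copy, KIF4B, so reads shared by both are not uniquely mapped and the KIF4A count is uncertain to that extent. KIF22 (ENSG00000079616.13, also known as Kid), a kinesin-10 that pushes chromosome arms away from the poles, was counted best among the mitotic kinesins. Its CPM was 38.3, 37.3 and 38.2 in the NC and 30.4, 30.1 and 27.6 in the siEIF1 libraries, and the log2 fold change was -0.37 (standard error 0.059, edgeR adjusted p = 7.12e-04). The ratio of KIF4A to KIF22 was 0.150, 0.136 and 0.0918 in the NC and 0.0603, 0.0594 and 0.0606 in the siEIF1 libraries, without overlap (exact two-sided permutation, p = 0.1, the smallest possible).

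Among the motors that act at microtubule ends, KIF2C and KIF18B were each estimated at below 30% of the NC level, while KIF18A did not pass the test. KIF2C (ENSG00000142945.13, also known as MCAK) is a kinesin-13 that takes microtubules apart and corrects wrong attachments at centromeres. Its CPM was 7.68, 8.71 and 8.56 in the NC and 2.25, 2.75 and 1.74 in the siEIF1 libraries. Its log2 fold change was -1.89 (standard error 0.15), and KIF2C had the smallest adjusted p of all kinesins (edgeR, 2.62e-06). KIF18B (ENSG00000186185.14), a kinesin-8 that works with KIF2C on astral microtubules, had 2.60, 3.72 and 3.71 CPM in the NC and 0.965, 0.688 and 1.14 CPM in the siEIF1 libraries. The log2 fold change of KIF18B was -1.84 (standard error 0.23, edgeR adjusted p = 1.05e-04). The 95% interval of KIF18B ran from -2.34 to -1.35, and its siEIF1 values rest on 30, 20 and 34 counts. Its paralog KIF18A (ENSG00000121621.7), which dampens chromosome movements at the metaphase plate, had 7.23, 7.06 and 6.05 CPM in the NC and 5.79, 6.36 and 6.06 CPM in the siEIF1 libraries, and the groups overlapped. For KIF18A the log2 fold change was -0.16, with a 95% interval from -0.40 to 0.083 (edgeR adjusted p = 0.362). The KIF18B to KIF18A ratio was 0.359, 0.527 and 0.614 in the NC and 0.167, 0.108 and 0.188 in the siEIF1 libraries, a difference of -1.70 on the log2 scale (exact two-sided permutation, p = 0.1, the smallest possible).

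All 4 motors of the midzone and of cytokinesis fell. KIF14 (ENSG00000118193.12) brings citron kinase to the cleavage site, and its CPM went from 2.60, 3.02 and 2.41 in the NC to 1.19, 0.791 and 0.737 in the siEIF1 libraries (log2 fold change -1.55, standard error 0.23, edgeR adjusted p = 3.37e-04). KIF20A (ENSG00000112984.12, also known as MKLP2) carries the chromosomal passenger complex to the midzone in anaphase. It had 2.56, 3.13 and 2.26 CPM in the NC and 1.09, 1.31 and 0.670 CPM in the siEIF1 libraries (log2 fold change -1.37, standard error 0.24, edgeR adjusted p = 0.00144). KIF20B (ENSG00000138182.15), a relative of KIF20A with a role in late cytokinesis, had 10.7, 9.80 and 9.02 CPM in the NC and 6.21, 6.64 and 4.45 CPM in the siEIF1 libraries (log2 fold change -0.77, standard error 0.14, edgeR adjusted p = 0.00139). KIF23 (ENSG00000137807.16, also known as MKLP1) is the motor subunit of centralspindlin, the complex that bundles midzone microtubules. Its CPM was 14.4, 16.4 and 12.7 in the NC and 7.92, 9.04 and 8.87 in the siEIF1 libraries (log2 fold change -0.75, standard error 0.10, edgeR adjusted p = 2.16e-04). Within this kinesin-6 family, KIF20A had the lowest fold change, and in KIF20A and KIF20B the lowest library was siEIF1 replicate 3. The ratio of KIF20A to KIF23 was 0.178, 0.191 and 0.178 in the NC and 0.138, 0.144 and 0.0755 in the siEIF1 libraries (exact two-sided permutation, p = 0.1, the smallest possible). Against KIF20B, KIF20A differed by -0.63 on the log2 scale, also without overlap. The siEIF1 values of KIF14 rest on 37, 23 and 22 counts, and those of KIF20A on 34, 38 and 20.

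**Figure D2:**
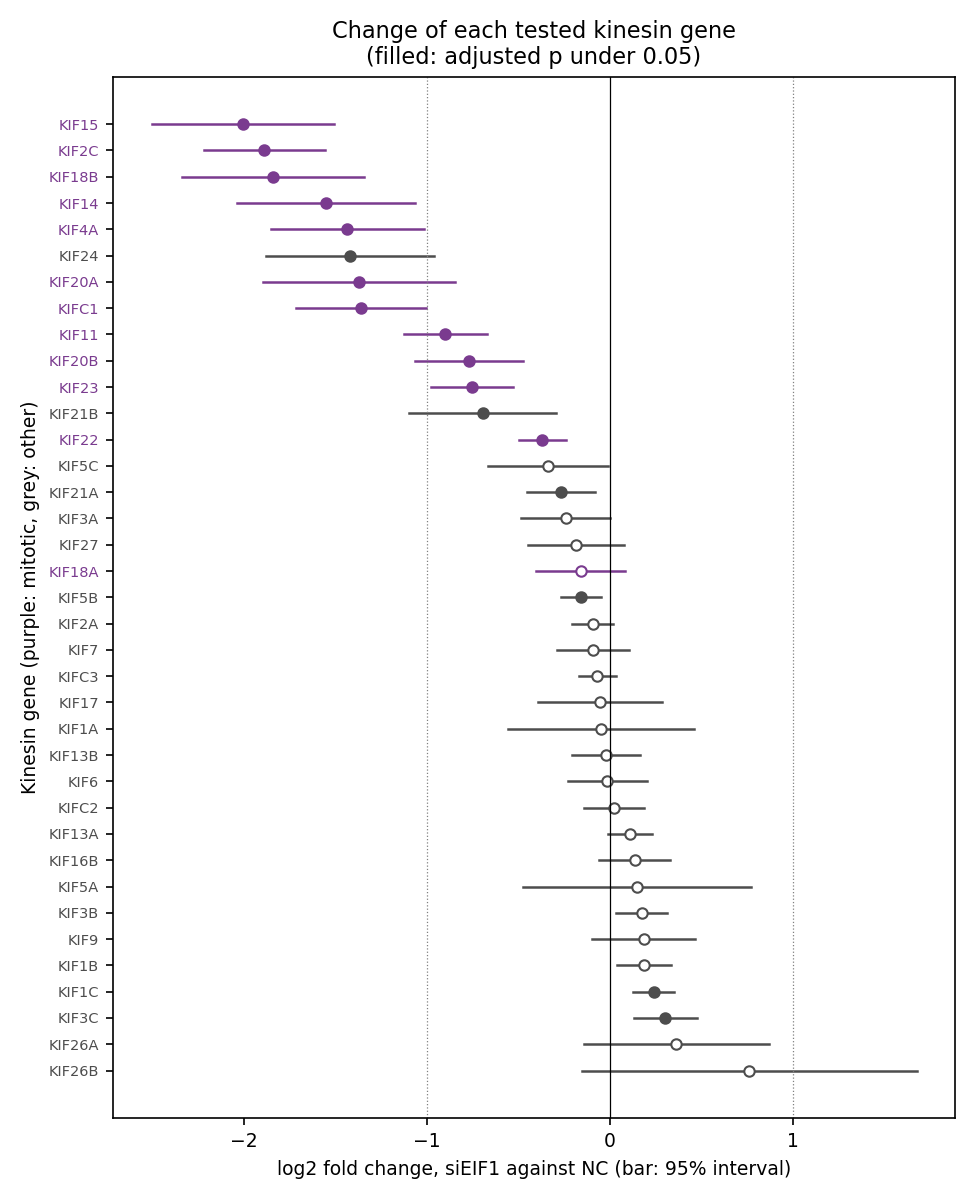
log2 fold change of each of the 37 tested kinesin genes (points) with its 95% interval (bars), purple for mitotic and grey for other kinesins, filled where the adjusted p was under 0.05. The lowest 5 genes are mitotic, KIF24 is the only grey point below -1, and the grey points from KIF5C to KIF26A lie between -0.34 and 0.36.

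The fall was seen in every library and did not rest on 1 of them. Over the 12 mitotic kinesins, the median difference from the NC mean was -1.15, -1.11 and -1.46 on the log2 scale in siEIF1 replicates 1 to 3, and 0.014, 0.12 and -0.15 in NC replicates 1 to 3. With any 1 library left out, the number of mitotic kinesins lower at an adjusted p under 0.05 stayed at 11 and the number past both limits at 7. The median without siEIF1 replicate 3 was -1.20. All 3 siEIF1 libraries were lower than all 3 NC libraries in 11 of the 12 mitotic kinesins and in 8 of the 25 other kinesins, against 18.9% of all genes tested.

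On the scale of FPKM, which takes gene length into account, the mitotic kinesins were a small part of all kinesin RNA and became smaller. Their FPKM summed to 19.7, 20.1 and 18.6 in the NC and to 11.5, 11.7 and 10.7 in the siEIF1 libraries. Of the summed kinesin FPKM that was 19.9% ± 0.956 under NC and 12.6% ± 1.13 under siEIF1 (both SD, n = 3). The sum of the other kinesins was 78.0 ± 1.67 FPKM under NC and 79.0 ± 4.66 FPKM under siEIF1 (both SD, n = 3), a difference within the spread. KIF22 had the highest FPKM of the mitotic kinesins, 7.21 ± 0.165 under NC and 5.50 ± 0.210 under siEIF1 (both SD, n = 3). KIF11, KIF2C and KIF23 followed in the NC group with 1.98 ± 0.145, 1.87 ± 0.130 and 1.81 ± 0.211 FPKM (SD, n = 3), values that did not differ beyond their spread. At the low end were KIF15, with 0.390 ± 0.0624 (SD, n = 3), and KIF14, with 0.300 ± 0.0361 (SD, n = 3). In the siEIF1 group KIF2C was at 0.497 ± 0.105 (SD, n = 3) FPKM, under KIF18A (1.09 ± 0.0404), KIF23 (1.06 ± 0.0757), KIF11 (1.05 ± 0.0929) and KIF20B (0.677 ± 0.119). The share of KIF22 in the mitotic sum was 36.9%, 35.1% and 39.6% in the NC and 49.5%, 47.2% and 49.4% in the siEIF1 libraries, without overlap. Without KIF22 the mitotic sum was 12.2 ± 0.919 FPKM under NC and 5.81 ± 0.376 FPKM under siEIF1 (both SD, n = 3). Across the 12 genes, a higher NC FPKM went with a fold change closer to 0 (Spearman's rho 0.55 over 12 genes, which share the same 6 libraries and are not independent).

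**Figure D3:**
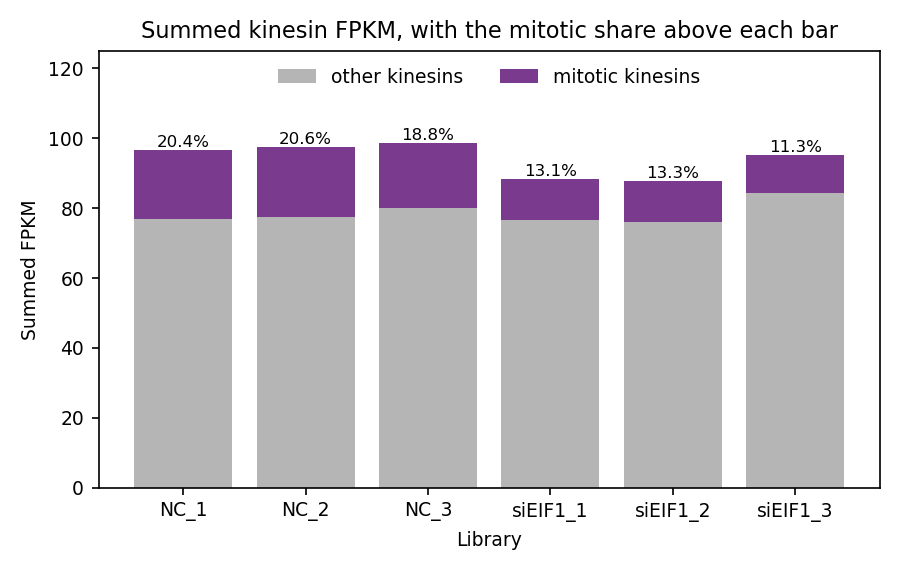
Summed FPKM of the other (grey) and mitotic (purple) kinesins in each library, with the mitotic share printed above each bar. The mitotic part is 18.8% to 20.6% of the bar in the NC and 11.3% to 13.3% in the siEIF1 libraries, while the grey part stays between 75.9 and 84.4 FPKM.

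The mitotic kinesin genes lie on 10 chromosomes, and most share short promoter elements. One of these is the cell cycle genes homology region (CHR, searched as TTTGAA or TTCGAA on both strands), an element through which repressor and activator complexes time transcription to the late cell cycle. A CHR match was present in 11 of 13 RefSeq promoter windows (GRCh38.p14, 250 bases before to 50 after the start) of the 12 mitotic genes, against 16.4% of all 35116 windows and 11.9% of the windows of tested genes. Both windows of KIF22 hold the same match, so by gene it was 10 of the 12, against 19.5% of all genes with a window. A match was also present in 34.9% of the windows of tested genes past both limits downwards and in 63.6% of those of the spindle and midzone partners described further on. Of the other kinesins, 19 had a window, and 2 of their 27 windows held a match. The matches nearest to the start are printed 30 bases wide on the gene's strand, 5′ to 3′, with the match in capitals (TTCAAA is TTTGAA on the opposite strand), first for the 10 mitotic genes in the order of their fold change and last for KIF24, the other kinesin past both limits.
KIF15, chr3:44761747-44761776, forward: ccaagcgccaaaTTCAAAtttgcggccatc
KIF18B, chr17:44947754-44947783, reverse: ccgcccggctaaTTTGAAcgcaaggcgccg
KIF14, chr1:200620733-200620762, reverse: gcggggcgcccaTTCAAAttgcggccttct
KIF4A, chrX:70290058-70290087, forward: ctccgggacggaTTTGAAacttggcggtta
KIFC1, chr6:33391815-33391844, forward: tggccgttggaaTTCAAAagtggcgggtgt
KIF11, chr10:92593090-92593119, forward: ctctgtctctttTTCAAAttgaggcgccga
KIF20B, chr10:89701602-89701631, forward: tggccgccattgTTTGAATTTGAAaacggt
KIF23, chr15:69414282-69414311, forward: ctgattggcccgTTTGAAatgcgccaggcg
KIF22, chr16:29790712-29790741, forward: ggcaccggggaaTTCGAAtgggagaggcgg
KIF18A, chr11:28108149-28108178, reverse: aagtggcttgggTTTGAAtattgtggttga
KIF24, chr9:34329250-34329279, reverse: acagcgcgggcgTTCGAActggcgcttggc

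Counted from 0 at the first transcribed base, these matches start between -55 and 24. A match from 60 before to 50 after, a stretch chosen after the positions were seen, was present in 10 of the 12 mitotic kinesins, in 1 of the 19 other kinesins (KIF24) and in 6.75% of all genes with a window. KIF5B, the other non-mitotic kinesin with a match, has it at -140. The same stretch held a match in 63.9% of the spindle and midzone partners with a window. Among tested genes past both limits downwards it did so in 31.6%. KIF20B holds 2 adjoining copies. KIF2C and KIF20A had no match in their windows and both fell by more than 2-fold, while KIF18A held one and did not pass the test. CCAAT boxes (CCAAT, both strands) were present in windows of 10 of the 12 mitotic kinesins and 7 of the 19 other kinesins, against 39.7% of all genes with a window. They were also present in 80.6% of the partners with a window and in 65.8% of tested genes past both limits downwards. An E2F site (TTCCCGCC, TTTGGCGC, TTTCCCGC or TTTCGCGC, both strands) was found in 1 mitotic kinesin, KIF15, and in 6.03% of all genes with a window. In KIF15 the E2F match starts at -43 and ends where the CHR match starts, at -35, without overlap. A motif match is a description of the sequence, and binding was not measured. KIF21B, KIF27, KIFC3, KIF13B, KIFC2, KIF5A and KIF26B were not in the promoter table.

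**Figure D4:**
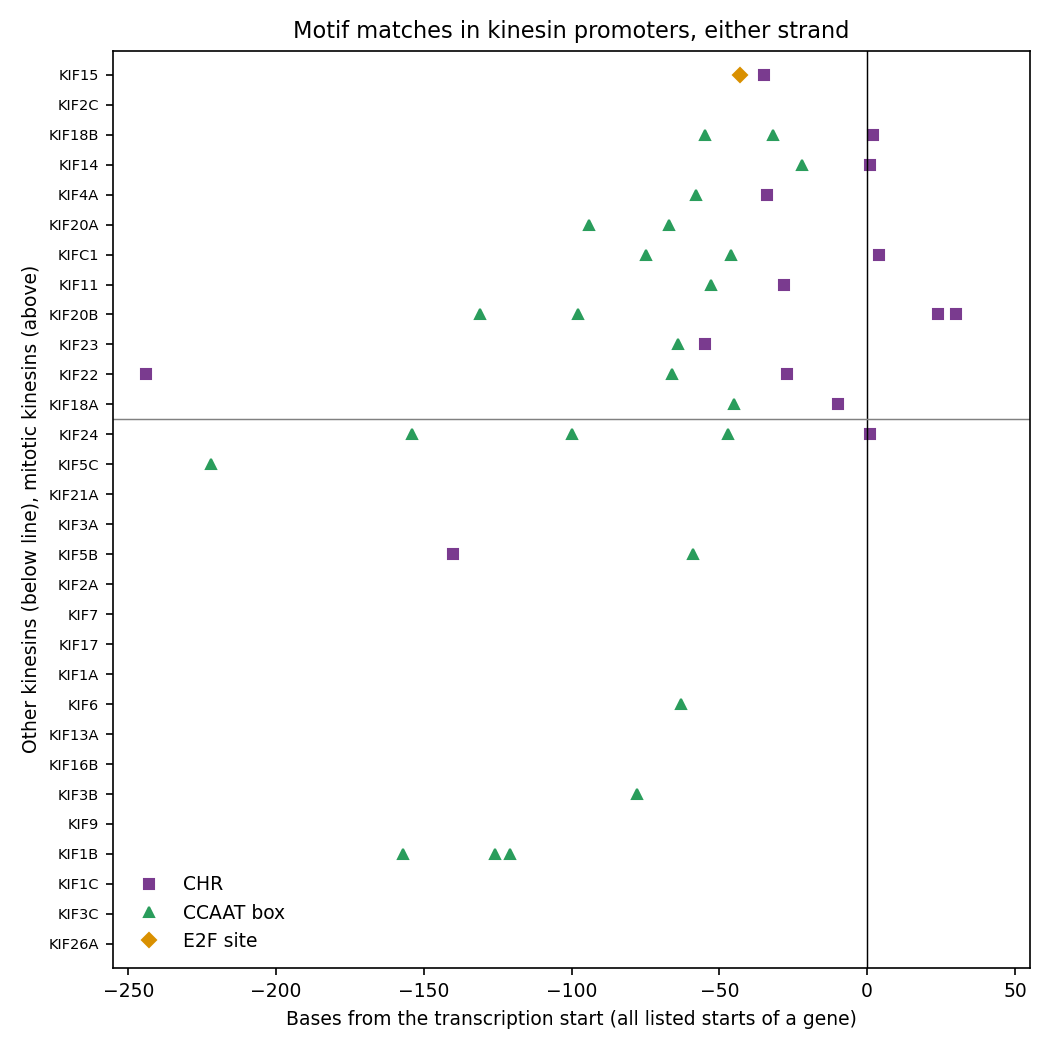
Start of each CHR (square), CCAAT (triangle) and E2F (diamond) match, in bases from the transcription start, for the mitotic kinesins above the line and the tested other kinesins below it, each ordered by fold change with the lowest at the top. Squares cluster next to the start in 10 mitotic genes and in KIF24, and a second listed start of KIF22 gives its square at -244.

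Of the other kinesins, KIF24 was the 1 that met both limits. KIF24 (ENSG00000186638.17) is a kinesin-13, in the same family as KIF2C, that sits at the mother centriole and restrains growth of the primary cilium. Its CPM was 2.75, 4.25 and 3.47 in the NC and 1.09, 1.55 and 1.27 in the siEIF1 libraries, with no overlap. The log2 fold change of KIF24 was -1.42 (standard error 0.21, edgeR adjusted p = 4.10e-04), and it stayed between -1.57 and -1.26 with any 1 library left out. The third kinesin-13 tested, KIF2A (ENSG00000068796.19), which shortens microtubules in dividing and resting cells, had 65.7, 64.0 and 61.3 CPM in the NC and 61.3, 57.2 and 60.6 CPM in the siEIF1 libraries. The log2 fold change of KIF2A was -0.093, with a 95% interval from -0.21 to 0.020 (edgeR adjusted p = 0.242). Against KIF2A, KIF2C moved by -1.82 and KIF24 by -1.32 on the log2 scale, each without overlap of the groups (exact two-sided permutation, p = 0.1, the smallest possible).

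Among the cargo motors, the most abundant ones changed little and in both directions. By mean FPKM over all libraries, KIF1C, KIF5B and KIF3B led the other kinesins. KIF1C (ENSG00000129250.12), a kinesin-3 that carries vesicles and mRNA, rose from 175, 175 and 187 CPM in the NC to 200, 213 and 221 CPM in the siEIF1 libraries (log2 fold change 0.24, standard error 0.052, edgeR adjusted p = 0.00526). Its antisense neighbour KIF1C-AS1 had 18 to 28 counts in the NC and 28 to 33 counts in the siEIF1 libraries, where KIF1C had 4643 to 6603. KIF5B (ENSG00000170759.11), the widely expressed kinesin-1 heavy chain, had 109, 111 and 109 CPM in the NC and 99.2, 92.7 and 103 CPM in the siEIF1 libraries. Its log2 fold change was -0.16 (standard error 0.050, edgeR adjusted p = 0.0428), and the adjusted p was above 0.05 without any of the NC replicates and without siEIF1 replicate 1 or 2, at up to 0.185. The ratio of KIF1C to KIF5B was 1.60, 1.58 and 1.72 in the NC and 2.02, 2.29 and 2.14 in the siEIF1 libraries (exact two-sided permutation, p = 0.1, the smallest possible). The other kinesin-1 heavy chains, KIF5A and KIF5C, which are best known from neurons, had mean counts of 23.5 and 114 over the 6 libraries and did not pass the test.

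Both members of the KIF21 pair, kinesin-4 motors that restrain microtubule growth, were lower, on less firm ground. KIF21B (ENSG00000116852.15) had 10.2, 6.85 and 7.50 CPM in the NC and 4.38, 4.09 and 6.66 CPM in the siEIF1 libraries (log2 fold change -0.69, standard error 0.19, edgeR adjusted p = 0.0177). NC replicate 1 was the highest of its group, and the groups came closest at NC replicate 2 and siEIF1 replicate 3. Without NC replicate 1 the log2 fold change was -0.51 with an edgeR adjusted p of 0.102, and without siEIF1 replicate 2 it was -0.57 with 0.0883. KIF21A (ENSG00000139116.19) had 1.13, 1.04 and 1.06 FPKM in the NC and 0.88, 0.80 and 0.98 FPKM in the siEIF1 libraries (log2 fold change -0.27, standard error 0.086, edgeR adjusted p = 0.0427). KIF21A passed without siEIF1 replicate 3 but not without any of the 5 other libraries, with adjusted p up to 0.162, nor in DESeq2, at 0.0788. The ratio of KIF21B to KIF21A was 0.728, 0.527 and 0.581 in the NC and 0.398, 0.401 and 0.557 in the siEIF1 libraries, and here the groups overlapped (exact two-sided permutation, p = 0.2).

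Of the 8 tested motors of the cilium and of kinesin-2 transport, 1 was higher at an adjusted p under 0.05 (12.5%, against 10.2% of all genes). None was lower, against 10.4% of all genes. KIF24, which restrains the primary cilium and fell (log2 fold change -1.42), was not counted among these 8. KIF3C (ENSG00000084731.15), a kinesin-2 motor, rose from 1.98, 1.81 and 1.82 FPKM in the NC to 2.12, 2.19 and 2.51 FPKM in the siEIF1 libraries (log2 fold change 0.30, standard error 0.079, edgeR adjusted p = 0.0153). Its adjusted p was 0.0609 without NC replicate 2, 0.0717 without NC replicate 3 and 0.0511 without siEIF1 replicate 3. KIF3A, the partner of KIF3B in ciliary transport, had 19.5, 18.2 and 19.6 CPM in the NC and 14.4, 14.1 and 19.9 CPM in the siEIF1 libraries. In KIF3A the library siEIF1 replicate 3 lay above all NC libraries and the other two below them. The log2 fold change of KIF3A was -0.24 (edgeR adjusted p = 0.155), and without siEIF1 replicate 3 it was -0.42 with an adjusted p of 0.00198. The ratio of KIF3C to KIF3A was 0.792, 0.787 and 0.716 in the NC and 1.16, 1.26 and 0.978 in the siEIF1 libraries, without overlap (exact two-sided permutation, p = 0.1, the smallest possible). KIF3B (log2 fold change 0.17, edgeR adjusted p = 0.0725), KIF17, KIF6, KIF7, KIF9 and KIF27 did not pass. KIF9 and its antisense gene KIF9-AS1 lie on opposite strands of 1 locus, and KIF9-AS1 had 102 to 124 counts in the NC and 118 to 158 in the siEIF1 libraries. The remaining cargo motors (KIF1A, KIF1B, KIF13A, KIF13B, KIF16B, KIFC2 and KIFC3) had log2 fold changes from -0.069 to 0.19, and KIF26A and KIF26B, with mean counts of 45 and 12.3, had 0.36 and 0.76 with 95% intervals that include 0.

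CENPE, a kinesin-7 that carries chromosomes to the spindle equator, does not have a KIF symbol and was followed with the spindle partners. Its CPM was 4.40, 4.01 and 3.33 in the NC and 1.74, 1.17 and 1.77 in the siEIF1 libraries (log2 fold change -1.32, standard error 0.20, edgeR adjusted p = 3.78e-04). Of 40 tested spindle and midzone partners of the mitotic kinesins, 32 were lower and 1 was higher at an adjusted p under 0.05 (10.4% and 10.2% of all genes), and 24 were past both limits (1.31% of all genes). The median log2 fold change of these partners was -1.10. Of them, 2, BIRC5 and PLK1, were chosen for display by the study on these libraries, so their direction here is not independent evidence. The study also reported RT-qPCR of both genes in independent biological replicates, with results that matched its RNA-seq. CDK1, the kinase that drives entry into mitosis, had the smallest adjusted p of the list (log2 fold change -1.66, edgeR adjusted p = 3.00e-07). Next were PRC1, the midzone bundler that binds KIF4A (-1.24, edgeR adjusted p = 8.71e-07), and TPX2, which binds KIF11 and KIF15 on the spindle (-1.14, edgeR adjusted p = 1.41e-06). The others past both limits were CENPF, MKI67, CCNB1, ANLN, BIRC5, HMMR, NDC80, CDCA8, CIT, SPC24, ASPM, CEP55, SKA1, NUF2, PLK1, DLGAP5, SPC25, GTSE1, CENPE, SGO2 and KNL1, with log2 fold changes from -1.88 (SPC25) to -1.01 (CCNB1). CIT, the citron kinase gene whose product KIF14 localises, had a log2 fold change of -1.39, and RACGAP1, the other subunit of centralspindlin beside KIF23, had -0.72, close to the -0.75 of KIF23. PPP1CC, a phosphatase subunit, rose (0.25, edgeR adjusted p = 0.00224). The 7 that did not pass were CKAP5, CLASP1, CLASP2, MAPRE1, MAPRE2, MAPRE3 and INCENP, of which all but INCENP bind microtubule ends also outside mitosis. NUSAP1, with a mean of 3 counts, was not tested.

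Transport partners moved in both directions, and the light chains and adaptors passed the test more often than all genes did. They were not matched to all genes for count level, whose part in this was not tested. Of 25 tested kinesin light chains and cargo adaptors, 6 were lower (24%, against 10.4% of all genes) and 5 were higher (20%, against 10.2%) at an adjusted p under 0.05, none of them past both limits, and the median log2 fold change was 0.029. RHOT1, which links mitochondria to kinesin-1, had 40.0, 40.0 and 36.6 CPM in the NC and 22.4, 20.8 and 21.0 CPM in the siEIF1 libraries (log2 fold change -0.86, edgeR adjusted p = 1.32e-06). SYBU, a kinesin-1 adaptor for axonal cargo, fell (-0.67, edgeR adjusted p = 5.31e-05), and CLSTN1, a membrane protein that binds the light chains, rose (0.44, edgeR adjusted p = 6.03e-05). The light chain KLC2 fell (-0.37) and KLC4 rose (0.37), and KIFAP3, the cargo subunit of kinesin-2, had -0.10 (edgeR adjusted p = 0.351). Of 37 tested genes of dynein, the motor of the opposite direction, with its activator dynactin and adaptors, 2 were lower (5.41%, against 10.4% of all genes) and 4 were higher (10.8%, against 10.2%), with a median of 0.047. BICD2 (0.59, edgeR adjusted p = 1.45e-05) and NUMA1 (0.39, edgeR adjusted p = 0.00139), adaptors for vesicles and for spindle poles, rose, and HOOK2 (-0.44, edgeR adjusted p = 0.00115) fell.

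**Figure D5:**
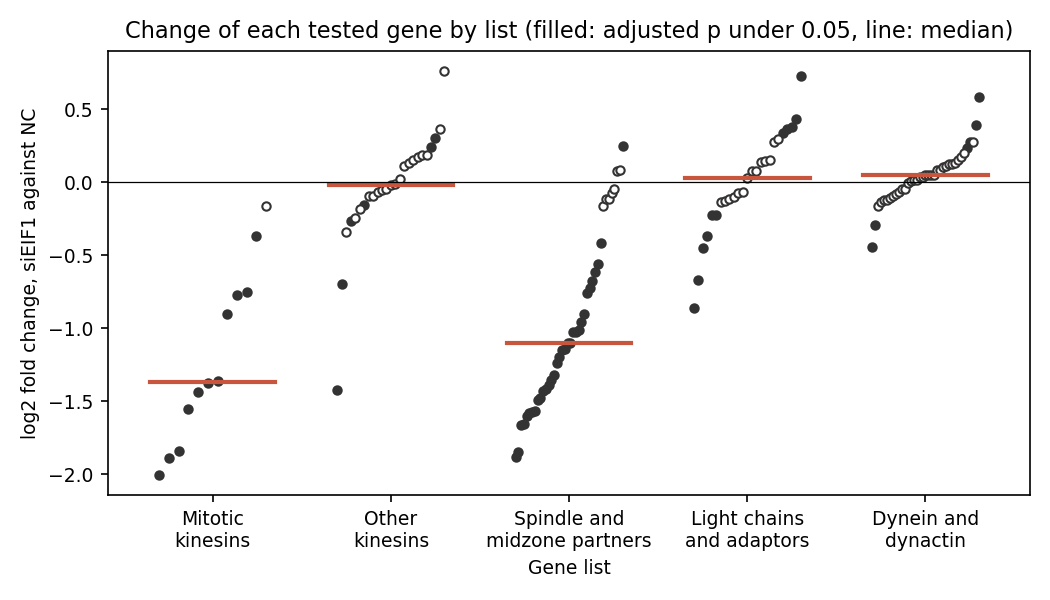
log2 fold change of each tested gene in 5 lists, filled where the adjusted p was under 0.05, with the median as a line. The medians are -1.36 for mitotic kinesins and -1.10 for spindle and midzone partners, and between -0.019 and 0.047 for the other 3 lists.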

How the data were processed

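The authors trimmed reads with FASTX-Toolkit, aligned them to GRCh38 with HISAT2 and deposited counts of uniquely mapped reads per gene and FPKM values rounded to 2 decimals. The counting program, its strand setting and the annotation release are not given in the sources used here, so counts of overlapping or antisense genes are uncertain. Libraries were grouped by their titles, and 0 columns were left unmatched. Genes with low counts were removed with filterByExpr, and 16749 genes were fitted with edgeR 4.0.16 (TMM, quasi-likelihood test, Benjamini-Hochberg adjustment over all tested genes) in R 4.3.3. Standard errors came from the F statistic. CPM used TMM-scaled library sizes summed over the 16749 fitted genes. The tests were run on simulated data first.

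Alternatives were RLE and upper-quartile factors, other filters, DESeq2 1.42.0, limma 3.58.1 on log2(FPKM + 1) and log2(FPKM + 0.1), a replicate block, glmTreat and leaving out each library. All 12 mitotic kinesins are named, as are other kinesins at an adjusted p under 0.05 and, for each partner list, the 3 smallest p-values and all past both limits. Members and lists were chosen with earlier results of these data known. Ratios between 2 genes, KIF3A, KIF2A, KIFAP3, KLC2, KLC4, RACGAP1, PPP1CC, RLBP1 and the partners that did not pass were picked after their values were seen. Coordinates are from RefSeq on GRCh38.p14, and chromosomes from GENCODE release 44. The methods describe the replicates as independent.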

Additional observations from a re-analysis of the deposited data

How the results depend on the processing

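The 11 mitotic kinesins lower at an adjusted p under 0.05 remained 11 in number under each alternative normalization, filter, tool, block and left-out library, and the 7 past both limits remained 7 except with glmTreat against a fold of 1.5 (6) and with limma on log2(FPKM + 1) (0), where the added 1 shrinks the change of genes at low FPKM. The median of the mitotic kinesins was -0.41 with limma on log2(FPKM + 1), -1.05 with log2(FPKM + 0.1), and from -1.47 to -1.20 with each library left out. For the partners it was -0.51, -0.89 and from -1.14 to -1.03, and for dynein and dynactin 0.016, 0.025 and from 0.012 to 0.052. Other kinesins lower numbered 1 and higher 1 with either limma fit, and from 1 to 5 lower and from 1 to 4 higher with each library left out. Dynein genes lower numbered 4 with either limma fit. The mitotic share of kinesin FPKM differed by -7.39 percentage points (siEIF1 minus NC), by -4.93 with CPM in place of FPKM, and by -7.94 to -6.74 with each library left out.

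With the replicate number as a block, the other kinesins higher were 4 and dynein genes lower were 4, and KIF3A, KIF3B and KIF1B passed. Deviations of same-numbered libraries correlated at 0.149, 0.0946 and 0.128, each the highest for its library, a hint from the data that falls short of a pairing. Genes whose direction changed were not past the threshold in any fit: KIF5A, at -8.6e-05 and -0.0040 with limma and from -0.11 to 0.32 with a library left out, and, with a library left out, KIF17 (from -0.14 to 0.042), KIF1A (from -0.30 to 0.13), KIF13B (from -0.13 to 0.046), KIF6 (from -0.064 to 0.033) and KIFC2 (from -0.038 to 0.089). The cause was not tested.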

Other observations

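Transcribed kinesin pseudogenes were also counted. KIF28P had 16, 34 and 20 counts in the NC and 23, 21 and 18 counts in the siEIF1 libraries (log2 fold change -0.28, edgeR adjusted p = 0.584), and KIF19BP had at most 2 counts in a library.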
